A study of Homo sapiens with 9 samples.

Results

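The NF-kB transcription factors and the genes that hold them in check were followed in MOLM13 cells with raised or reduced RBM5. The 10 genes were chosen by name and comprise the 5 subunits of the factor (NFKB1, REL, RELA, NFKB2 and RELB), 3 inhibitors of the IkB family (NFKBIA, NFKBIE and NFKBIZ) and 2 induced regulators (TNFAIP3 and BIRC3). They are 10 of the 57820 named genes in the count table, and all 10 had enough counts to be tested in every comparison.

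MOLM13 is an established acute myeloid leukemia line with a KMT2A rearrangement, and RBM5 is an RNA-binding protein that takes part in splicing. Total RNA depleted of ribosomal RNA was sequenced from 9 cultures. They form 3 groups of 3 biological replicates, and the labels list no treatment for any of them. The RBM5 OE cells carried a lentiviral RBM5 cDNA followed by P2A and a Venus reporter. The RBM5 KO cells expressed Cas9 with a single guide (RBM5-sg1) against coding exons, and the CTRL cells expressed Cas9 with a non-targeting guide (sgNT). Per the study's methods, lines with Cas9 were selected with blasticidin and guide-carrying cells with puromycin, while no selection step is given for RBM5 OE in the sources used here. No cloning step is described for these cells in the sources used here. No culture with an empty cDNA vector was analysed here, and Cas9 and a guide are described above only for RBM5 KO and CTRL. RBM5, the vector that carried it and any difference in Cas9, guide or selection therefore cannot be told apart in RBM5 OE. RBM5 measured 379.5, 414 and 415 CPM (counts scaled to library size by TMM) in RBM5 OE, 70.5, 73.9 and 79.4 CPM in RBM5 KO, and 122, 117 and 113 CPM in CTRL, so that the 3 groups did not overlap.

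Each library held 25522952 to 27871988 counts. The 8 genes listed as markers of a KMT2A-rearranged myeloid cell, such as FLT3, MEIS1 and CD33, summed to 1470.0 to 1556 CPM in RBM5 OE, 1138 to 1321 CPM in RBM5 KO and 1284 to 1418 CPM in CTRL. The T cell and B cell lists each summed to under 2 CPM in every library (highest 1.99 and 1.97). The fibroblast and epithelial list summed to at most 5.56 CPM, with EPCAM at 0. In CTRL replicate 3 and RBM5 KO replicate 1, many genes differed from the other libraries of their group. Both were the lowest of their group for 7 of the 10 NF-kB genes, against 21.1% of 14754 genes in the filtered table, and results that rest on them are given with and without them.

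NF-kB acts as dimers of Rel proteins that IkB inhibitors hold in the cytoplasm. In the canonical arm, TNF, interleukin-1 and Toll-like receptors activate the IKK complex, IkB is degraded, and RELA or REL paired with the p50 product of NFKB1 enters the nucleus. In the noncanonical arm, receptors such as CD40 and the lymphotoxin beta receptor stabilize the kinase encoded by MAP3K14, and the NFKB2 precursor is processed to p52, which pairs with RELB. Many of the genes switched on by NF-kB encode its own subunits and brakes, and in leukemia cells of the monocytic lineage the pathway is known for its link to inflammation and survival.

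The promoters of these genes are shown first, because self-regulation through them is the textbook feature that joins the set. RefSeq promoter windows (GRCh38.p14, 250 bases before to 50 after each start) were matched for 8 of the 10 genes by symbol, with 13 windows in all, and RELB and NFKBIE were not matched. Windows were searched on both strands for the 10-base kB consensus, the general NF-kB recognition motif, and overlapping matches were kept. It was found in 9 of 13 windows (69.2%), against 11.3% of all 35116 windows of that length, and in 7 of 8 genes (87.5%), against 13.3% of 27305 genes. The matches of NFKB1, REL, the second NFKB2 start, NFKBIA and TNFAIP3 lay at most 107 bases before the start. Every matched stretch is printed 5′ to 3′ along the gene with the flanking bases, and capitals mark the kB consensus. The 70 bases before each RELA start are shown for contrast, since neither RELA window held the consensus.
NFKB1, chr4:102501290-102501339, + strand: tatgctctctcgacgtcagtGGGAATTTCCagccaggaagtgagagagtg
REL, chr2:60881507-60881557, + strand: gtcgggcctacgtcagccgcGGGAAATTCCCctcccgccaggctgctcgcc
NFKB2, chr10:102394451-102394529, + strand: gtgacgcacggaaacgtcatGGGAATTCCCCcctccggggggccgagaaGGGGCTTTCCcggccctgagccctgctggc
NFKB2, chr10:102395509-102395558, + strand: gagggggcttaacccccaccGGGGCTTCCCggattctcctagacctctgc
NFKB2, chr10:102395664-102395704, + strand: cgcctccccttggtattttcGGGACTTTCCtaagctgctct
NFKBIA, chr14:35404801-35404850, - strand: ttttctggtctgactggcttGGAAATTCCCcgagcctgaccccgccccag
NFKBIZ, chr3:101827747-101827796, + strand: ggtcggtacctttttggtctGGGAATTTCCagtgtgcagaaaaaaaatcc
NFKBIZ, chr3:101849264-101849304, + strand: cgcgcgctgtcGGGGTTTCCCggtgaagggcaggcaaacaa
TNFAIP3, chr6:137867172-137867233, + strand: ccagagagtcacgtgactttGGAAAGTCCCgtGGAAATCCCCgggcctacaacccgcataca
BIRC3, chr11:102317265-102317314, + strand: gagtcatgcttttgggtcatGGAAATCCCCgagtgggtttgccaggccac
BIRC3, chr11:102317329-102317378, + strand: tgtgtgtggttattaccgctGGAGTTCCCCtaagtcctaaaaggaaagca
RELA, chr11:65663858-65663927, - strand: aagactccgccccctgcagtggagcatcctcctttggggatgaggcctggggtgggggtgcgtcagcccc
RELA, chr11:65662917-65662986, - strand: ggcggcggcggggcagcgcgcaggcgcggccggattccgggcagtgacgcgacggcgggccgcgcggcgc

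The remaining windows without a match were a further start of NFKB1 and a further start of NFKB2. A match is a stretch of letters, not a measured binding site, and its absence says only that these letters were not in the window. Binding was not measured in these libraries.

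With RBM5 overexpressed, 9 of the 10 NF-kB genes rose, and RELA was the exception. Against a background of 19.8% of 14370 tested genes called higher and 20.2% called lower, 9 members were called higher and 0 lower (edgeR's quasi-likelihood test, adjusted p under 0.05). The RBM5 OE values of the same 9 genes lay above all CTRL values, as did those of 26.1% of tested genes. The median log2 fold change of the 10 genes was 1.73, against 0.01 over all tested genes. The rises ran from 1.42-fold for REL to 17.6-fold for BIRC3. In bulk RNA, more transcripts per cell and more cells with the transcript cannot be told apart. The RBM5 OE replicates were close to each other, the highest being 1.03 to 1.27 times the lowest over the 10 genes, against 1.04 to 3.92 times in CTRL.

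**Figure D1:**
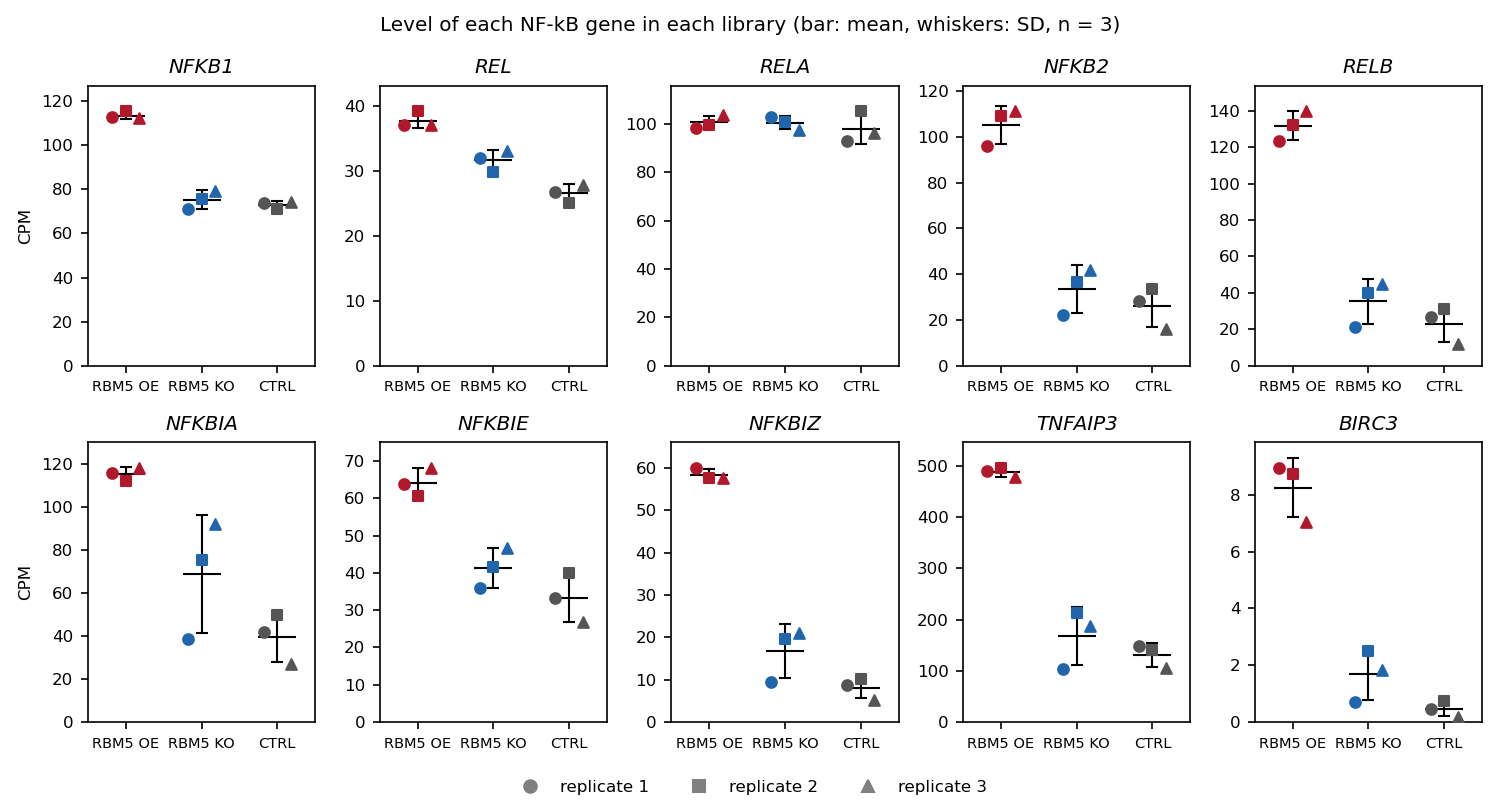
Level of each gene in CPM (vertical axes, each starting at 0) in RBM5 OE, RBM5 KO and CTRL, with 1 symbol per library, the mean as a bar and the SD as whiskers (n = 3). The RBM5 OE libraries lie above all others for every gene but RELA, and CTRL replicate 3 and RBM5 KO replicate 1 are the low points of their groups for 7 genes.

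The canonical subunits moved least. NFKB1, which encodes the p105 precursor of p50, lies on chromosome 4 of GRCh37 from 103422487 to 103538459 and measured 113, 115 and 112 CPM in RBM5 OE, against 73.9, 71.3 and 74.2 CPM in CTRL. The groups were tight and well apart, and the gene rose by 0.64 on the log2 scale (SE 0.063, adjusted p = 2.34e-05 from edgeR), or 1.55-fold. REL, which encodes c-Rel (chromosome 2, 61108626 to 61158747), measured 37.1, 39.1 and 36.95 CPM in RBM5 OE, against 26.8, 25.1 and 27.8 CPM in CTRL. It rose by 0.51 (SE 0.077, adjusted p = 0.000376 from edgeR). Its counts were not whole, so part of its reads could not be assigned to REL alone, and REL overlaps 2 genes on the same strand in the annotation. RELA encodes p65, the main activating partner in the canonical dimer, and lies on chromosome 11 from 65421070 to 65430561. It measured 98.4, 99.7 and 104 CPM in RBM5 OE, against 92.9, 105 and 96.0 CPM in CTRL, and the groups overlapped. Its log2 fold change was 0.04 (95% interval −0.11 to 0.19, adjusted p = 0.681 from edgeR).

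Both noncanonical subunits rose several-fold. NFKB2, which encodes the p100 precursor of p52 (chromosome 10, 104153867 to 104162281), measured 95.9, 109 and 111 CPM in RBM5 OE, against 28.3, 33.4 and 16.0 CPM in CTRL. The lowest RBM5 OE library was well above the highest CTRL library, and the log2 fold change was 2.03 (SE 0.194, adjusted p = 1.87e-05 from edgeR), or 4.08-fold. RELB, the transactivating partner of p52 (chromosome 19, 45504719 to 45541450), measured 124, 133 and 140 CPM in RBM5 OE, against 26.6, 31.0 and 11.6 CPM in CTRL. This was a 5.74-fold rise, with a log2 fold change of 2.52 (SE 0.246, adjusted p = 2.17e-05 from edgeR). The 95% intervals of NFKB2 (1.61 to 2.45) and NFKB1 (0.50 to 0.77) did not overlap, nor did those of RELB (1.98 to 3.06) and RELA. Without CTRL replicate 3, which was the lowest library for both, the log2 fold changes were 1.77 for NFKB2 and 2.19 for RELB, and both genes were still called.

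**Figure D2:**
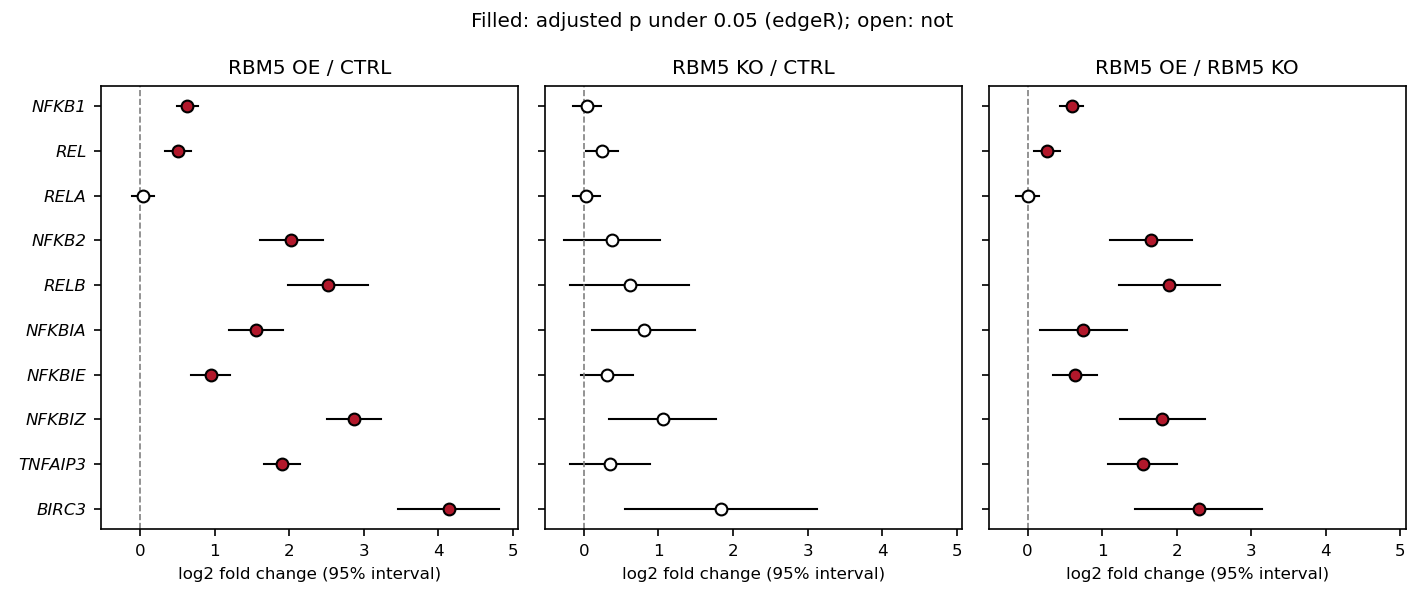
Log2 fold changes of the 10 genes (horizontal axis) with 95% intervals in RBM5 OE over CTRL, RBM5 KO over CTRL and RBM5 OE over RBM5 KO; filled points passed an adjusted p of 0.05 in edgeR. In RBM5 OE over CTRL the 9 filled points lie between 0.51 (REL) and 4.14 (BIRC3), while RELA sits at 0.04, and in RBM5 KO over CTRL no point is filled.

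The inhibitors rose with the subunits, to unequal extents. NFKBIA, which encodes IkB alpha, the inhibitor that is degraded and resynthesized in each round of canonical signaling (chromosome 14, 35870285 to 35873955), measured 115, 112 and 118 CPM in RBM5 OE, against 41.6, 49.6 and 26.8 CPM in CTRL. It rose 2.94-fold (log2 fold change 1.56, SE 0.163, adjusted p = 3.37e-05 from edgeR). NFKBIE, which encodes IkB epsilon, another cytoplasmic inhibitor (chromosome 6, 44225903 to 44233525), measured 63.8, 60.7 and 68.3 CPM in RBM5 OE, against 33.2, 40.0 and 26.8 CPM in CTRL. This was the smallest rise of the 3 inhibitors, at 1.93-fold (log2 fold change 0.95, SE 0.12, adjusted p = 0.000113 from edgeR). NFKBIZ encodes a nuclear member of the family that modulates transcription together with p50 (chromosome 3, 101546835 to 101579866), and it measured 60.1, 57.6 and 57.6 CPM in RBM5 OE, against 8.67, 10.1 and 5.29 CPM in CTRL. It rose 7.31-fold (log2 fold change 2.87, SE 0.165, adjusted p = 8.66e-07 from edgeR), and its gene overlaps NXPE3 on the same strand in the annotation.

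TNFAIP3, a ubiquitin-editing enzyme that shuts off canonical signaling (chromosome 6, 138188351 to 138204451), was the highest of the 10 genes in RBM5 OE, per length as well as in CPM. It measured 490.0, 497 and 479 CPM in RBM5 OE, against 149, 141 and 104 CPM in CTRL, a 3.73-fold rise (log2 fold change 1.90, SE 0.11, adjusted p = 9.02e-07 from edgeR). BIRC3, which encodes a ubiquitin ligase that restrains the noncanonical kinase and promotes survival (chromosome 11, 102188215 to 102210134), was scarce in CTRL. It had 245, 248 and 186 counts in RBM5 OE, against 12, 19 and 5 counts in CTRL. The groups were far apart at this low level, with a log2 fold change of 4.14 (SE 0.311, 95% interval 3.46 to 4.82, adjusted p = 4.15e-06 from edgeR). Across the alternatives its log2 fold change ran from 1.39, on log2(TPM + 1), to 4.63. Without CTRL replicate 3, the same 9 genes were called, in a fit for which the share of all genes called is not given. The log2 fold change was then 3.76 for BIRC3 and 2.64 for NFKBIZ. Genes on the opposite strand overlap NFKB1, RELA, TNFAIP3 and BIRC3, and reads were counted without strand, so reads from such partners cannot be told apart from theirs.

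Levels of different genes were set side by side per length, in TPM (transcript abundance scaled by length and library, from the deposited table). In RBM5 OE the order of mean TPM was TNFAIP3 (217 ± 14.2, SD, n = 3), NFKBIA (145 ± 1.67), RELB (79.8 ± 5.99), RELA (60.8 ± 4.55), NFKB2 (53.5 ± 6.81), NFKB1 (38.2 ± 1.60), NFKBIE (36.5 ± 1.54), NFKBIZ (31.1 ± 1.26), REL (5.36 ± 0.121) and BIRC3 (2.19 ± 0.123). In that order the libraries of RELA and NFKB2 overlapped, as did those of NFKB1 and NFKBIE. In CTRL, TNFAIP3 (65.8 ± 9.91 TPM), RELA (60.0 ± 3.15) and NFKBIA (48.8 ± 13.6) stood at the top and overlapped, and NFKB2 (13.7 ± 5.83) and RELB (13.6 ± 5.60) lay below NFKB1 (23.3 ± 2.09). The remaining CTRL means were 18.3 ± 3.44 TPM for NFKBIE, 4.40 ± 1.46 for NFKBIZ, 3.80 ± 0.401 for REL and 0.223 ± 0.161 for BIRC3. RELB thus ranked above RELA in RBM5 OE and below it in CTRL. In RBM5 KO the order was NFKBIA (84.9 ± 32.8 TPM), TNFAIP3 (79.0 ± 29.6), RELA (58.5 ± 0.352), NFKB1 (24.1 ± 1.38), NFKBIE (21.7 ± 2.58), RELB (21.0 ± 7.73), NFKB2 (17.0 ± 6.32), NFKBIZ (10.2 ± 5.20), REL (4.48 ± 0.370) and BIRC3 (0.397 ± 0.212). RELA lay within the range of NFKBIA and TNFAIP3 there, and the libraries of NFKB1, NFKBIE, RELB and NFKB2 overlapped. The length that RSEM assigned to a gene varied between libraries by up to 3.44 times for BIRC3, 1.62 times for NFKBIZ, 1.41 times for TNFAIP3 and 1.32 times for NFKB2, and by at most 1.14 times for the other members, which moves their TPM against their CPM.

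The balance between the arms was read in mRNA of their subunits within each library, so that library size cancels. Protein, processing of p100 to p52 and entry into the nucleus were not measured, so these values do not give the activity of either arm. The TPM ratio of NFKB2 to NFKB1 was 1.31, 1.53 and 1.35 in RBM5 OE, 0.470, 0.697 and 0.929 in RBM5 KO, and 0.591, 0.915 and 0.310 in CTRL. All 3 RBM5 OE libraries lay above 1 and the other 6 below it, and RBM5 KO and CTRL overlapped. The ratio of RELB to RELA was 1.30, 1.33 and 1.30 in RBM5 OE, 0.208, 0.410 and 0.459 in RBM5 KO, and 0.286, 0.280 and 0.116 in CTRL. Again only the RBM5 OE libraries exceeded 1. On CPM, which is not per length, the mean ratio of NFKB2 to NFKB1 was 0.929 in RBM5 OE, 0.441 in RBM5 KO and 0.356 in CTRL. For that ratio the position against 1 thus holds for TPM only, while the order of the groups was kept. RELB to RELA on CPM was 1.26 to 1.35 in RBM5 OE, at most 0.462 in RBM5 KO and at most 0.295 in CTRL. No test was made of these ratios, which are scores over genes chosen with results known.

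Summed over the 5 subunits, the level was 219.6, 247 and 246 TPM in RBM5 OE, 109, 128 and 138 TPM in RBM5 KO, and 113, 124 and 106 TPM in CTRL. NFKB2 and RELB together made up 55.2%, 57.3% and 55.7% of that sum in RBM5 OE, against 26.3%, 29.9% and 14.2% in CTRL. In RBM5 KO their share was 21.0%, 32.1% and 36.2%. RELA made up 24.4% to 26.6% of the sum in RBM5 OE, against 49.8% to 57.9% in CTRL, although its own level was called neither higher nor lower.

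**Figure D3:**
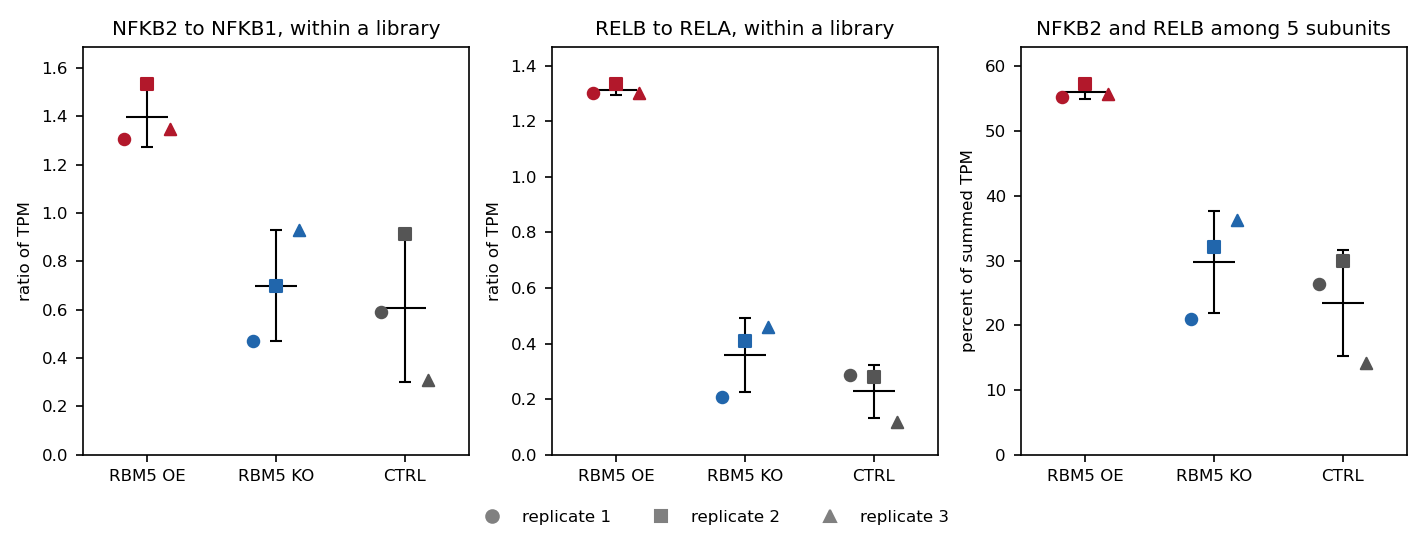
Ratio of NFKB2 to NFKB1 TPM, ratio of RELB to RELA TPM, and percent of the summed TPM of 5 subunits held by NFKB2 and RELB, by library in RBM5 OE, RBM5 KO and CTRL (bar, mean; whiskers, SD; n = 3). Both ratios exceed 1 in the RBM5 OE libraries alone, and the share of NFKB2 and RELB mRNA is 55.2% to 57.3% there.

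In RBM5 KO, no NF-kB gene passed the test against CTRL. With 0.837% of 14218 tested genes called higher and 1.67% lower, 0 of the 10 genes were called by edgeR, and 4 (REL, NFKBIA, NFKBIZ and BIRC3) had an unadjusted p under 0.05, all 4 in the direction of higher, against 8.13% of tested genes. DESeq2 called 2 of them higher, NFKBIZ and BIRC3, with 2.41% of all genes called higher and 3.21% lower. The median log2 fold change of the 10 genes was 0.36, against 0.01 over all tested genes. REL was the only member whose groups did not overlap, with 31.9, 29.8 and 33.0 CPM in RBM5 KO, against 26.8, 25.1 and 27.8 CPM in CTRL (log2 fold change 0.25, SE 0.095, adjusted p = 0.229 from edgeR), and 11.2% of tested genes lay wholly above CTRL in this way.

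Within RBM5 KO, replicate 1 stood apart from replicates 2 and 3. NFKBIA measured 38.5, 75.5 and 92.1 CPM in RBM5 KO, against 41.6, 49.6 and 26.8 CPM in CTRL, and its log2 fold change was 0.80 (SE 0.306, adjusted p = 0.229 from edgeR). NFKBIZ measured 9.36, 19.7 and 21.0 CPM in RBM5 KO, against 8.67, 10.1 and 5.29 CPM in CTRL (log2 fold change 1.06, SE 0.317, adjusted p = 0.133 from edgeR). Replicate 1 lay among the CTRL libraries in both genes. BIRC3 had 19, 68 and 50 counts in RBM5 KO, against 12, 19 and 5 counts in CTRL (log2 fold change 1.84, SE 0.571, adjusted p = 0.145 from edgeR). TNFAIP3 measured 103, 213 and 187 CPM in RBM5 KO, against 149, 141 and 104 CPM in CTRL, and replicate 1 was below all CTRL libraries. Its log2 fold change was 0.35 (SE 0.239, adjusted p = 0.505 from edgeR).

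The noncanonical subunits had the same spread. NFKB2 measured 22.0, 36.6 and 42.1 CPM in RBM5 KO, against 28.3, 33.4 and 16.0 CPM in CTRL (log2 fold change 0.37, 95% interval −0.27 to 1.02). RELB measured 21.1, 39.7 and 45.0 CPM in RBM5 KO, against 26.6, 31.0 and 11.6 CPM in CTRL (0.61, −0.19 to 1.41). The intervals of both genes therefore include no change and a rise of about the size seen for NFKBIE in RBM5 OE. NFKB1 and RELA were tighter, with log2 fold changes of 0.04 (−0.14 to 0.23) and 0.03 (−0.15 to 0.22). NFKBIE was at 0.31 (−0.04 to 0.66).

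Which genes were called in RBM5 KO depended on CTRL replicate 3 and RBM5 KO replicate 1. Without both, edgeR called 6 members higher and 0 lower, with 6.94% of 14381 tested genes called higher and 6.68% lower. These were NFKB2 (log2 fold change 0.35, SE 0.116, adjusted p = 0.0431), RELB (0.56, SE 0.115, adjusted p = 0.00116), NFKBIA (0.88, SE 0.11, adjusted p = 1.43e-06), NFKBIZ (1.12, SE 0.139, adjusted p = 1.32e-06), TNFAIP3 (0.47, SE 0.095, adjusted p = 0.00102) and BIRC3 (1.83, SE 0.413, adjusted p = 0.0028). Without RBM5 KO replicate 1 alone, NFKBIA, NFKBIZ, TNFAIP3 and BIRC3 were called higher, with 3.88% of all genes called higher and 3.77% lower, and without CTRL replicate 3 alone 0 members were, with 0.405% higher and 1.14% lower. The estimates lay close to those of all 6 libraries when both were left out, but moved in opposite directions when 1 was. NFKB2 was at 0.60 without RBM5 KO replicate 1 and 0.12 without CTRL replicate 3, and RELB was at 0.88 and 0.29 in the same order. TNFAIP3 ran from 0.14, without RBM5 KO replicate 2, to 0.61, without RBM5 KO replicate 1. With 2 libraries a group, and with the libraries chosen after they were seen to stand apart, these calls are a description of the 4 libraries. What sets the 2 libraries apart was not tested.

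**Figure D4:**
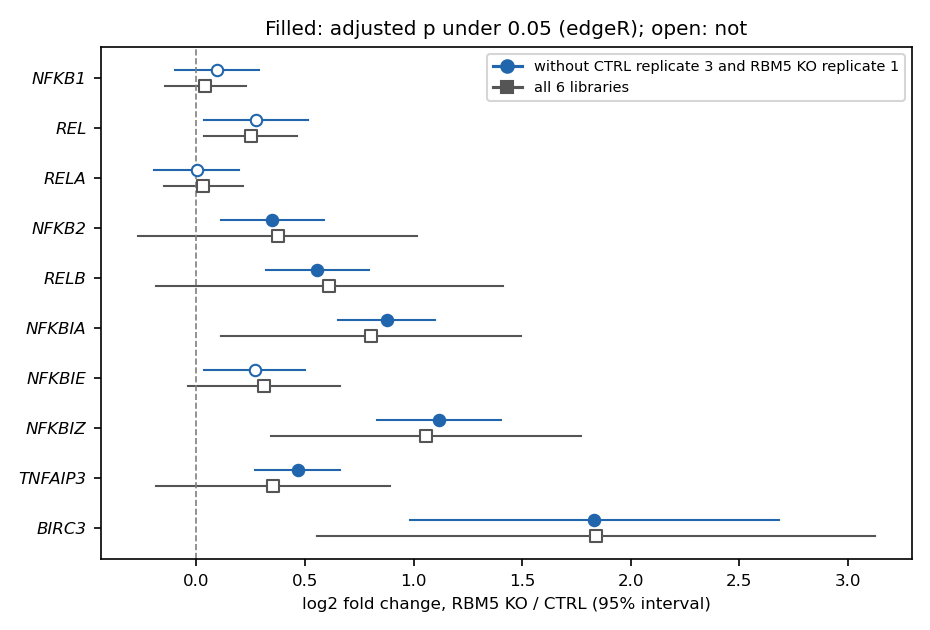
Log2 fold change of each gene in RBM5 KO over CTRL with its 95% interval, without CTRL replicate 3 and RBM5 KO replicate 1 (circles) and in all 6 libraries (squares); filled symbols passed an adjusted p of 0.05 in edgeR. The points of a gene lie close together, and 6 circles but no square are filled. Without the 2 libraries the intervals narrow for all genes but NFKB1, REL and RELA, where they are slightly wider.

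RBM5 OE was also set directly against RBM5 KO, since both comparisons above share the CTRL libraries. All members but RELA were higher in RBM5 OE, 9 of 10, with 19.5% of 14754 tested genes called higher and 20.6% lower, and 26.6% with RBM5 OE wholly above RBM5 KO. The differences were again largest among BIRC3 (log2 fold change 2.29, SE 0.392), RELB (1.90, SE 0.311), NFKBIZ (1.81, SE 0.261), NFKB2 (1.65, SE 0.252) and TNFAIP3 (1.54, SE 0.214), with adjusted p-values from edgeR of 0.000199 to 0.00076. NFKBIA (0.75, SE 0.266, adjusted p = 0.0423 from edgeR), NFKBIE (0.64, SE 0.135, adjusted p = 0.00302 from edgeR), NFKB1 (0.59, SE 0.069, adjusted p = 5.94e-05 from edgeR) and REL (0.26, SE 0.079, adjusted p = 0.0219 from edgeR) followed. The call of NFKBIA was lost in 8 of 19 alternatives, DESeq2 among them (adjusted p = 0.0808), and that of REL in 4 of 19. RELA was at 0.00 (95% interval −0.15 to 0.16). Without CTRL replicate 3 and RBM5 KO replicate 1, the same 9 members were called higher, with 22.9% of 15019 tested genes called higher. The log2 fold change of NFKBIA was then 0.47 (SE 0.09, adjusted p = 0.000396 from edgeR), and those of BIRC3, RELB, NFKBIZ, NFKB2 and TNFAIP3 were 1.93, 1.65, 1.53, 1.43 and 1.29.

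The further genes of the pathway were taken from 8 lists with 83 genes, of which 71 were tested in RBM5 OE against CTRL. Of these, 30 were higher and 7 lower (edgeR), against 19.8% and 20.2% of all tested genes, with a median log2 fold change of 0.24, against 0.01 over all tested genes. Of 17 tested genes of the IKK complex and its activators, 4 rose and 2 fell, against the same 19.8% and 20.2%. MALT1, the paracaspase that links antigen receptors to IKK, rose by 0.47 (adjusted p = 0.000956 from edgeR) and IRAK1, a kinase of the Toll-like receptor pathway, by 0.27 (adjusted p = 0.00735 from edgeR). RBCK1 rose by 0.22 (adjusted p = 0.0195 from edgeR) and RNF31 fell by 0.25 (adjusted p = 0.0175 from edgeR), both being subunits of the linear ubiquitin ligase complex. Each lost its call in 3 of 15 alternatives, RBCK1 whenever an RBM5 OE library was left out and RNF31 without RBM5 OE replicate 1 or 2 and on log2(TPM + 1). The call of IRAK1 was lost in 1, with all 9 libraries in 1 fit.

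Among 7 tested TRAF and cIAP adaptors, 1 rose and 1 fell, where 19.8% and 20.2% of all tested genes did. TRAF3, which keeps the noncanonical kinase low, rose by 0.79 (adjusted p = 1.96e-05 from edgeR). TRADD, the adaptor of the TNF receptor, fell by 0.31 (adjusted p = 0.0382 from edgeR), but it was not called in 8 of 15 alternatives. BIRC2, the close relative of BIRC3, was not called, with a log2 fold change of 0.18 (adjusted p = 0.156 from edgeR), and TRAF4 was at −0.17 (adjusted p = 0.118 from edgeR). Of the other IkB family members, BCL3, a nuclear protein that pairs with p50 and p52, had 67.2 to 69.7 CPM in RBM5 OE, against 9.52 to 22.5 CPM in CTRL, and rose by 2.04 (adjusted p = 3.33e-05 from edgeR). NFKBIB, which encodes IkB beta, rose by 0.28 (adjusted p = 0.00916 from edgeR), though not without RBM5 OE replicate 3, and NFKBID was at −0.21 (adjusted p = 0.27 from edgeR).

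Further brakes rose more often than they fell, with 6 of 11 tested genes higher and 2 lower, where 19.8% and 20.2% of all genes were. ZC3H12A, an RNase that degrades inflammatory mRNAs, rose by 1.79 (adjusted p = 9.55e-05 from edgeR). CYLD, a deubiquitinase that opposes IKK activation, had 117 to 134 CPM in RBM5 OE, against 48.3 to 62.8 CPM in CTRL, and rose by 1.20 (adjusted p = 6.26e-06 from edgeR). TNIP1, a partner of TNFAIP3, rose by 0.58 (adjusted p = 0.000173 from edgeR). OTUD7B, a deubiquitinase that protects TRAF3, rose by 0.35 (adjusted p = 0.00904 from edgeR), but on log2(TPM + 1) its log2 fold change was −0.10 and was not called. The genes that fell, named here although outside the naming rule, were FAM105B, a deubiquitinase for linear ubiquitin chains (−0.39, adjusted p = 0.0159 from edgeR), and TNIP2, another partner of TNFAIP3 (−0.28, adjusted p = 0.0169 from edgeR).

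Calls among receptors and ligands were few and had no common direction, where 19.8% of all tested genes were called higher and 20.2% lower. Of 6 tested receptors of the canonical arm, TLR1 alone rose, by 0.68 (adjusted p = 0.0174 from edgeR), and it was not called in 4 of 15 alternatives. TNFRSF1B (0.17, adjusted p = 0.06 from edgeR), TLR4 (0.07, adjusted p = 0.603) and TLR5 (0.18, adjusted p = 0.796) were not called. Of 4 tested receptors of the noncanonical arm, CD40 rose by 2.24 (adjusted p = 0.000757 from edgeR), at 4.57 to 5.65 CPM in RBM5 OE, against 0.378 to 1.88 CPM in CTRL. TNFRSF8, which encodes CD30, fell by 2.56 (adjusted p = 1.21e-05 from edgeR), to 0.635 to 0.872 CPM in RBM5 OE, against 4.31 to 4.80 CPM in CTRL. LTBR (−0.21, adjusted p = 0.0537 from edgeR) and TNFRSF12A (0.10, adjusted p = 0.713) were not called. Among 5 tested ligands, LTB, a chain of lymphotoxin, rose by 0.69 (adjusted p = 0.0368 from edgeR), although not in 7 of 15 alternatives, and TNFSF14 fell by 0.52 (adjusted p = 0.00364 from edgeR). TNF (0.40, adjusted p = 0.284 from edgeR) and IL1B (0.62, adjusted p = 0.29) were not called.

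Effector genes that NF-kB is known to induce were mostly higher, 14 of 18 tested with 0 lower, against 19.8% and 20.2% of all genes, and had a median log2 fold change of 0.98. CXCL10, a chemokine also induced by interferon, rose by 5.02 (adjusted p = 7.06e-06 from edgeR), at 21.8 to 28.5 CPM in RBM5 OE, against 0.0378 to 1.60 CPM in CTRL. C3, the central complement component, rose by 3.83 (adjusted p = 2.93e-06 from edgeR). ICAM1, an adhesion molecule, had 171 to 191 CPM in RBM5 OE, against 24.5 to 38.5 CPM in CTRL, and rose by 2.44 (adjusted p = 7.83e-07 from edgeR). CD83, a maturation marker of dendritic cells, rose by 1.46 (adjusted p = 3.05e-05 from edgeR).

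**Figure D5:**
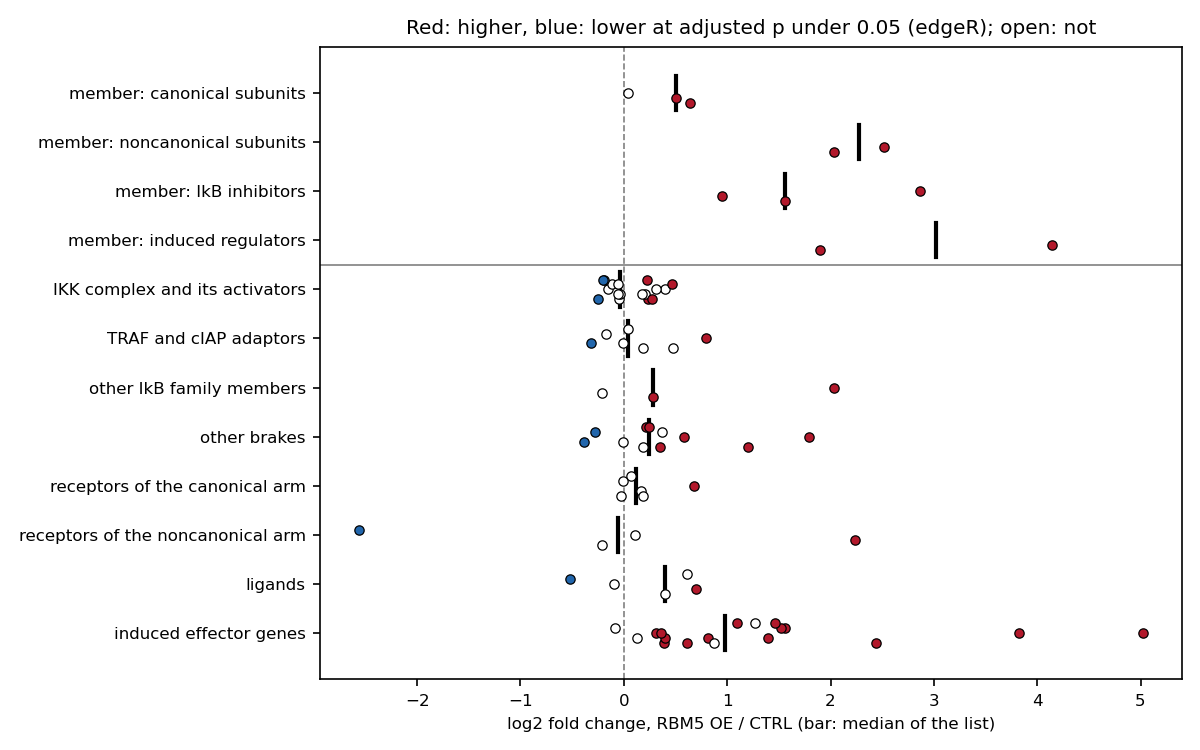
Log2 fold change in RBM5 OE over CTRL (horizontal axis) of each tested gene in the member groups, above the gray line, and in the 8 further lists, below it; red genes were called higher and blue lower by edgeR at an adjusted p under 0.05, and black bars are medians. The noncanonical subunits, the inhibitors and the induced regulators have medians of 2.28, 1.56 and 3.02, against 0.51 for the canonical subunits and −0.04 for the IKK list.

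In RBM5 KO against CTRL the same 8 lists gave 2 genes higher, SOD2 and PTX3, and 1 lower, IRF1, of 71 tested, where 0.837% and 1.67% of all genes were called; the 3 are named although outside the naming rule. Without CTRL replicate 3 and RBM5 KO replicate 1, 27 of 73 tested genes were higher and 2 lower, where 6.94% and 6.68% of all genes were. With all 6 libraries, 18 of the 71 tested genes lay wholly above CTRL and 5 wholly below, where 1597 and 1665 of all 14218 tested genes did. C3 (log2 fold change 2.32, adjusted p = 0.069 from edgeR), TLR4 (0.78, adjusted p = 0.079) and ZC3H12A (0.90, adjusted p = 0.173) lay above without being called, as did TRAF3, TRAF4 and TNFRSF1B. RBCK1 (−0.36, adjusted p = 0.0568 from edgeR) and OTUD7B (−0.08, adjusted p = 0.738) lay below and were not called either. ICAM1 was at −0.31 (adjusted p = 0.586 from edgeR). In RBM5 OE against RBM5 KO, 17 of 73 tested genes were higher and 11 lower, close to the 19.5% and 20.6% of all genes, and without the same 2 libraries 20 of 75 were higher and 19 lower, where 22.9% and 23.3% of all genes were.

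Genes with a pattern close to that of a member were found by the root mean square difference of log2 CPM, each set against its CTRL mean, over the 9 libraries and 11979 genes. Nearest to NFKB1 were ETV6 (0.048), RP11-254F7.2 (0.068), PTP4A2 (0.069), YY1AP1 (0.071) and PHF21A (0.074), on the log2 scale. Nearest to NFKB2 were BCL3 (0.184), DUSP10 (0.208), TNFAIP3 (0.209), HIST1H2BJ (0.227) and H1F0 (0.236). The neighbours of NFKB1 stood 0.54 to 0.71 above CTRL in RBM5 OE, and those of NFKB2 1.76 to 2.08. RELB was not among the 5 genes nearest to NFKB2. A difference in size enters this measure as well as one in shape, and in RBM5 OE against CTRL RELB rose by 2.52 and NFKB2 by 2.03. The measure describes these libraries, which the genes share.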

How the data were processed

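RNA from 9 MOLM13 cultures (3 each of RBM5 OE, RBM5 KO and CTRL) was sequenced as paired-end libraries depleted of ribosomal RNA. Per the labels, the authors trimmed reads with Trim Galore, aligned them to hg19 (GRCh37.p13) with STAR 2.7.1a, marked duplicates with GATK 4.1.2.0 and quantified genes with RSEM without strand. The paper's methods name Salmon instead, and the version of RSEM and of the annotation is not given in the sources used here. The deposited expected counts are estimates of reads by gene from RSEM without scaling across libraries. The deposited TPM values are RSEM abundances scaled by effective length and library. The 92 spike-in rows were at 0 and were left out.

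These estimated counts were rounded to whole numbers and fitted with edgeR 4.0.16 under R 4.3.3 (filterByExpr, TMM with factors of 0.9715 to 1.0254, quasi-likelihood test). RBM5 OE and RBM5 KO were each compared with CTRL in their own 6 libraries, and RBM5 OE with RBM5 KO in all 9. Benjamini-Hochberg adjustment took in every gene tested, and a call is an adjusted p under 0.05. The p-values set the difference between groups against an estimate of the spread between replicate cultures, which borrows from other genes. The test was tried on simulated counts with known changes. CPM are counts scaled by library size and TMM, and log2 CPM for likeness used an offset of 0.5 and a mean of at least 1. Alternatives were DESeq2 1.42.0, limma-voom and limma on log2(TPM + 1) (limma 3.58.1; TPM of at least 1 in 3 libraries), RLE scaling, library totals, other filters, other sets of libraries, and the replicate number as a block. They were applied to the further pathway genes only after the data were seen.

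The members, the gene lists, the tests and the 2 libraries left out together were chosen with earlier results of these data known. Named are all members, RBM5, up to 4 genes of each further list with the smallest p in RBM5 OE against CTRL, and the 5 genes nearest in pattern to NFKB1 and to NFKB2. Coordinates of genes are from an annotation of GRCh37, and promoters from RefSeq (GRCh38.p14). Counts limit the precision of BIRC3 most, and intervals cover these libraries only. Python 3.11.15 and matplotlib 3.10.9 were used for the figures.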

Additional observations from a re-analysis of the deposited data

How the results depend on the processing

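In RBM5 OE against CTRL, 9 members were called higher under all 15 alternatives, from 9 to 9 when each library was left out. In RBM5 KO against CTRL the count was 0 with all 6 libraries, 2 (NFKBIZ and BIRC3) with DESeq2, with no filter on low counts (a count above 0 in 1 library) and with all 9 libraries in 1 fit, 0 to 4 when each library was left out, and 6 without both CTRL replicate 3 and RBM5 KO replicate 1. In that fit 13.6% of 14381 genes were called in either direction, against 2.51% with all 6 libraries. In RBM5 OE against RBM5 KO the count ran from 7 to 9, since REL or NFKBIA lost its call in 12 cases. In the main fits, 19.8% of all tested genes were called higher in RBM5 OE against CTRL and 19.5% in RBM5 OE against RBM5 KO. For RBM5 KO against CTRL the share was 0.837% in the main fit and 2.41% with DESeq2. It was 0.405% without CTRL replicate 3 and 3.88% without RBM5 KO replicate 1. Where no share is given for a setting, its counts are not set against a background. No member called in a comparison changed its direction under any alternative run.

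With the replicate number as a block, 9 members were called in RBM5 OE against CTRL, 0 in RBM5 KO against CTRL and 8 in RBM5 OE against RBM5 KO. The share of all genes called in these fits is not given, so the counts are not set against a background. The labels do not say that a number marks a shared culture or day, and libraries with the same number did not deviate together (correlations −0.349 to 0.12 over genes), so the numbers were not taken as pairs. The highest correlation between libraries of different groups was 0.446, between CTRL replicate 3 and RBM5 KO replicate 1. What these 2 libraries share was not tested. In CPM in place of TPM, the mean ratio of NFKB2 to NFKB1 was 0.929 in RBM5 OE and 0.441 in RBM5 KO, against 1.40 and 0.699 in TPM. The shift from TPM to CPM lies in the division by length, while RBM5 OE lay above RBM5 KO in both. Depth limited BIRC3 most, with 5 counts in CTRL replicate 3. Fits that leave a library out have 2 samples in a group, which are assumed to vary like the others. Of the further pathway genes tested in RBM5 OE against CTRL, 24 to 34 were called higher and 3 to 10 lower across the alternatives, against 30 and 7 in the main fit. The number of genes tested differed between alternatives, and no share of all genes is set beside these counts.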
